A study of Mus musculus with 21 samples.

Results

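Liver responses to a 30% partial hepatectomy were compared between Mdr2 knockout mice (KO) and control mice, 2 days after surgery. The quantity described here is the genotype difference in the day 2 response, that is the change from day 0 to day 2 in KO livers minus the same change in control livers, for every gene measured. It is called the interaction below and is a difference of log2 values, so a positive interaction means a response that was higher in KO. It used 15 of the 21 arrays of the series and was tested in 7320 of the 12393 genes on the array, those whose log2 level exceeded 4 on 3 or more arrays.

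All animals were 9-month-old males that had lost part of the liver, and the lobe removed at surgery served as the day 0 sample. The 4 groups were KO on day 2 (n = 3, mice 250, 254 and 258), KO on day 0 (n = 6, those mice and mice 312, 332 and 337), control on day 2 (n = 3, mice 263, 264 and 265) and control on day 0 (n = 3, mice 263, 265 and 303). The KO mice are Mdr2-/-, Mdr2 being the product of Abcb4. The labels give the strain of KO mice as FVB129P2 and that of controls as FVB129P2/FVBNJ, and strain background and genotype cannot be told apart. Day 6 arrays of both genotypes, 3 each, entered the fit, the filter on low values and the choice of each gene's probe set, and are not compared here.

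Mdr2 moves phospholipid across the canalicular membrane into bile, and mice without it have bile that injures the ducts, with chronic inflammation, fibrosis and later liver tumours. After removal of liver tissue the remaining hepatocytes leave quiescence, mount an acute phase response, reduce parts of their metabolic programme and copy their DNA. The comparison asks which of these changes differed between chronically injured and control livers.

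Abcb4 itself lay at 8.03, 7.88 and 7.89 (log2) in KO livers on day 2 and between 7.59 and 8.96 in KO livers on day 0, with a median of 8.08. Its control values were 9.23, 10.33 and 10.22 on day 2 and 9.68, 10.18 and 9.51 on day 0. Every KO array was below every control array. Alb, the serum albumin gene and a hepatocyte marker, lay between 14.66 and 15.12 on all 15 arrays, and 17 of the 18 hepatocyte markers on the array passed the filter on low values.

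RNA quality was uneven. Some control transcripts have probe sets at both ends, and a larger 3′ minus 5′ difference means shorter RNA. For Gapdh this log2 difference was 9.5 on the array of control mouse 265 on day 2, 1.58 for control mouse 263 on day 2 and 2.03 for KO mouse 337 on day 0, and lay between −0.2 and 0.23 on the other 12 arrays of the 4 groups. Across tested genes, the mean correlation between arrays of a group was 0.906 in control livers on day 2 and 0.946 to 0.98 in the other 5 groups. Each group was small, and this limits the precision of every value. Values without the 3 arrays with a Gapdh difference above 1, or without 1 array, are given beside many results that they moved by over 1.5 times, but not for every array, so a value printed alone is not shown to be stable. Leaving out the 3 arrays leaves control day 2 with mouse 264 alone, assumed to vary like the other groups.

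No single gene passed the test of the interaction. With limma and Benjamini-Hochberg adjustment over 7320 genes, 0 genes (0%) had an adjusted p under 0.05, the smallest adjusted p was 0.0733, shared by 9 genes, and 27 genes were under 0.1, of which 10 were higher and 17 lower in KO. With mouse as a random block, which pairs the day 0 and day 2 samples of an animal, 8 genes passed, Hpd and Klf1 higher and Slpi, Faap20, Cystm1, Prune1, Il17rb and Reep5 lower in KO. Klf1 exceeded the level of the filter on low values in control livers on day 0 only. Its interaction is therefore a fall to background in controls, and a Klf1 response in KO could not be measured. At an unadjusted p under 0.05 there were 1070 genes (14.6%), 424 higher (5.79%) and 646 lower (8.83%). The count after adjustment was also set by single arrays, at 228 without control mouse 264 on day 2 and 74 without control mouse 263 on day 2. In simulated data of the same layout, 7.5% of genes changed by a log2 of 1 and 74% of genes changed by a log2 of 2 were recovered, so a count of 0 does not show that responses were equal. The simulation gave each gene 1 spread in all groups and left samples unpaired. In the arrays the median SD was 0.475 in control livers on day 2 and 0.214 to 0.300 in the other groups, so recovery there may differ.

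The 2 responses behind the interaction differed in how many genes passed. In KO livers 0 genes passed between day 2 and day 0 (439 at an unadjusted p under 0.05, smallest adjusted p = 0.171 by limma), but 32 passed without KO mouse 258 on day 0 and 140 with array weights. In control livers 696 genes passed (9.51%), 383 higher on day 2 (5.23%) and 313 lower (4.28%). This contrast in counts is not a test of the difference, which is the interaction above. The 383 genes that rose in controls had a median change of 0.16 in KO and 1.15 in controls, and 279 of them were above 0 in KO, 31 by at least 1. The 313 genes that fell in controls had a median change of −0.157 in KO and −1.28 in controls, and 225 of them were below 0 in KO, 18 by at least 1. These genes were chosen by their control response, which makes that response large among them. The number rising or falling in controls also turned on single arrays, 173 in all without control mouse 265 on day 2, 1283 without control mouse 264 on day 2, 179 and 240 without control mice 265 and 303 on day 0, 403 without control mouse 263 on day 0, and 78 without the 3 arrays of high Gapdh difference.

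**Figure D1:**
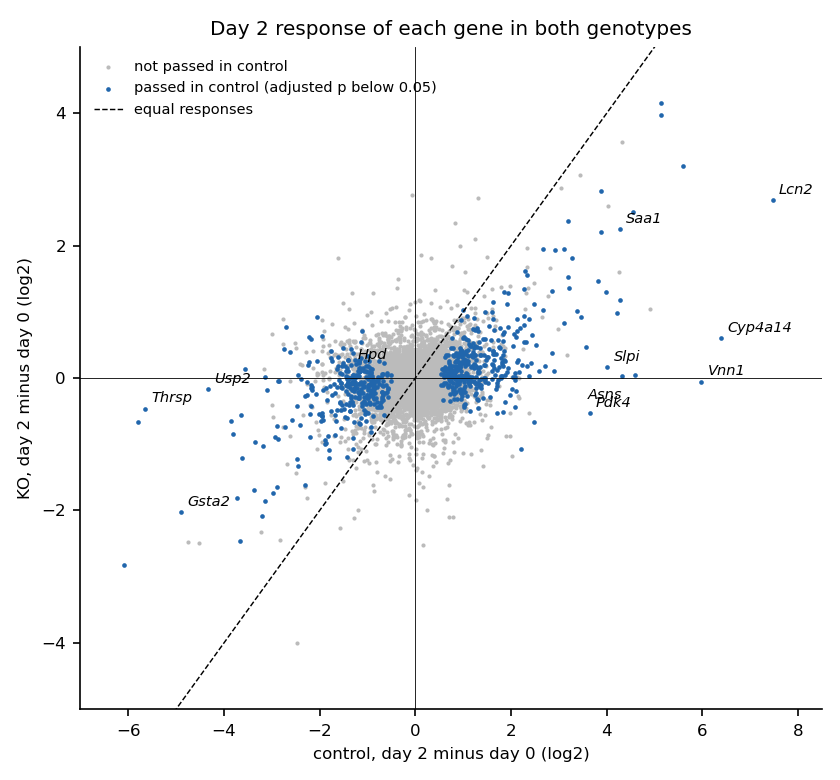
Each point is 1 of 7320 genes, with the change between day 2 and day 0 in control livers on the horizontal axis and in KO livers on the vertical axis, both in log2. Blue points are the 696 genes that passed in control livers; of these, 279 of 383 that rose and 225 of 313 that fell in controls lie on the same side of 0 in KO.

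Over all tested genes the median interaction was −0.10, and the central 90% of genes lay between −1.14 and 1.21, against a median standard error (SE) of 0.38. For 669 genes (9.14%) the day 2 values of all 3 KO livers, each minus the KO day 0 mean, were above those of all 3 control livers, each minus the control day 0 mean. For 1228 genes (16.8%) they were all below, so responses did not overlap in 25.9% of genes. These shares, and the 5.79% higher and 8.83% lower at an unadjusted p under 0.05, are the background against which the lists below are read. The lists were tested as single genes within the whole table and are described by counts and medians only.

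Enzymes that break down amino acids formed the list with the largest positive median among the lists with at least 5 tested genes. Of 23 tested genes of amino acid breakdown and the urea cycle, 14 had an unadjusted p under 0.05 with a higher response in KO (60.9%, against 5.79% of all genes) and 0 with a lower one, although none passed the adjustment. Their median interaction was 0.94, made of a median change of 0.20 in KO and −0.76 in controls, and 22 of 23 were above 0. For 13 of 23 the responses of the 3 KO livers lay above those of the 3 control livers without overlap, against 9.14% of all genes. The median was 1.05 without the 3 arrays of high Gapdh difference and lay between 0.80 and 1.05 over all 34 alternative settings.

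Hpd encodes 4-hydroxyphenylpyruvate dioxygenase, which degrades a product of tyrosine. It lay at 13.97, 13.50 and 13.43 (log2) in KO livers on day 2, and at 13.09, 13.415 and 13.78 (lowest, median, highest) in KO livers on day 0. The control livers held 12.80, 12.77 and 12.68 on day 2 and 14.04, 14.09 and 14.13 on day 0. The control groups did not overlap and lay on either side of the KO values, while the KO groups overlapped each other. The interaction was 1.53 ± 0.27 (SE, limma adjusted p = 0.0733), and Hpd passed the adjustment in 10 of 34 alternative settings.

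Other members belong to tryptophan breakdown and the urea cycle. Haao, an enzyme of the kynurenine branch of tryptophan breakdown, lay at 10.71, 10.05 and 10.43 in KO livers on day 2 and between 10.17 and 10.53 on day 0, with a median of 10.35. In control livers it lay at 10.51, 9.99 and 10.04 on day 2 and at 11.54, 11.22 and 11.70 on day 0. Only the control day 0 group stood apart, and the interaction was 1.35 ± 0.28 (adjusted p = 0.0823).

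Asl, the urea cycle enzyme argininosuccinate lyase, lay at 12.48, 11.42 and 11.11 in KO livers on day 2 and between 10.66 and 11.21 on day 0, with a median of 10.955. Its control values were 10.83, 10.57 and 10.19 on day 2 and 11.49, 11.46 and 11.99 on day 0. KO mouse 250 held the highest value of all 15, and the interaction was 1.83 ± 0.40 (adjusted p = 0.0839). Among the other members, Fah of tyrosine breakdown had an interaction of 1.02 ± 0.34, and 0.66 without control mouse 265 on day 2, and Prodh, the proline dehydrogenase, 2.09 ± 0.66. Cps1, the first enzyme of the urea cycle, had 0.99 ± 0.35, Gpt, alanine aminotransferase, 1.30 ± 0.42, and Tat, tyrosine aminotransferase, 1.45 ± 0.55. None of these 5 passed the adjustment, with adjusted p between 0.195 and 0.247.

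**Figure D2:**
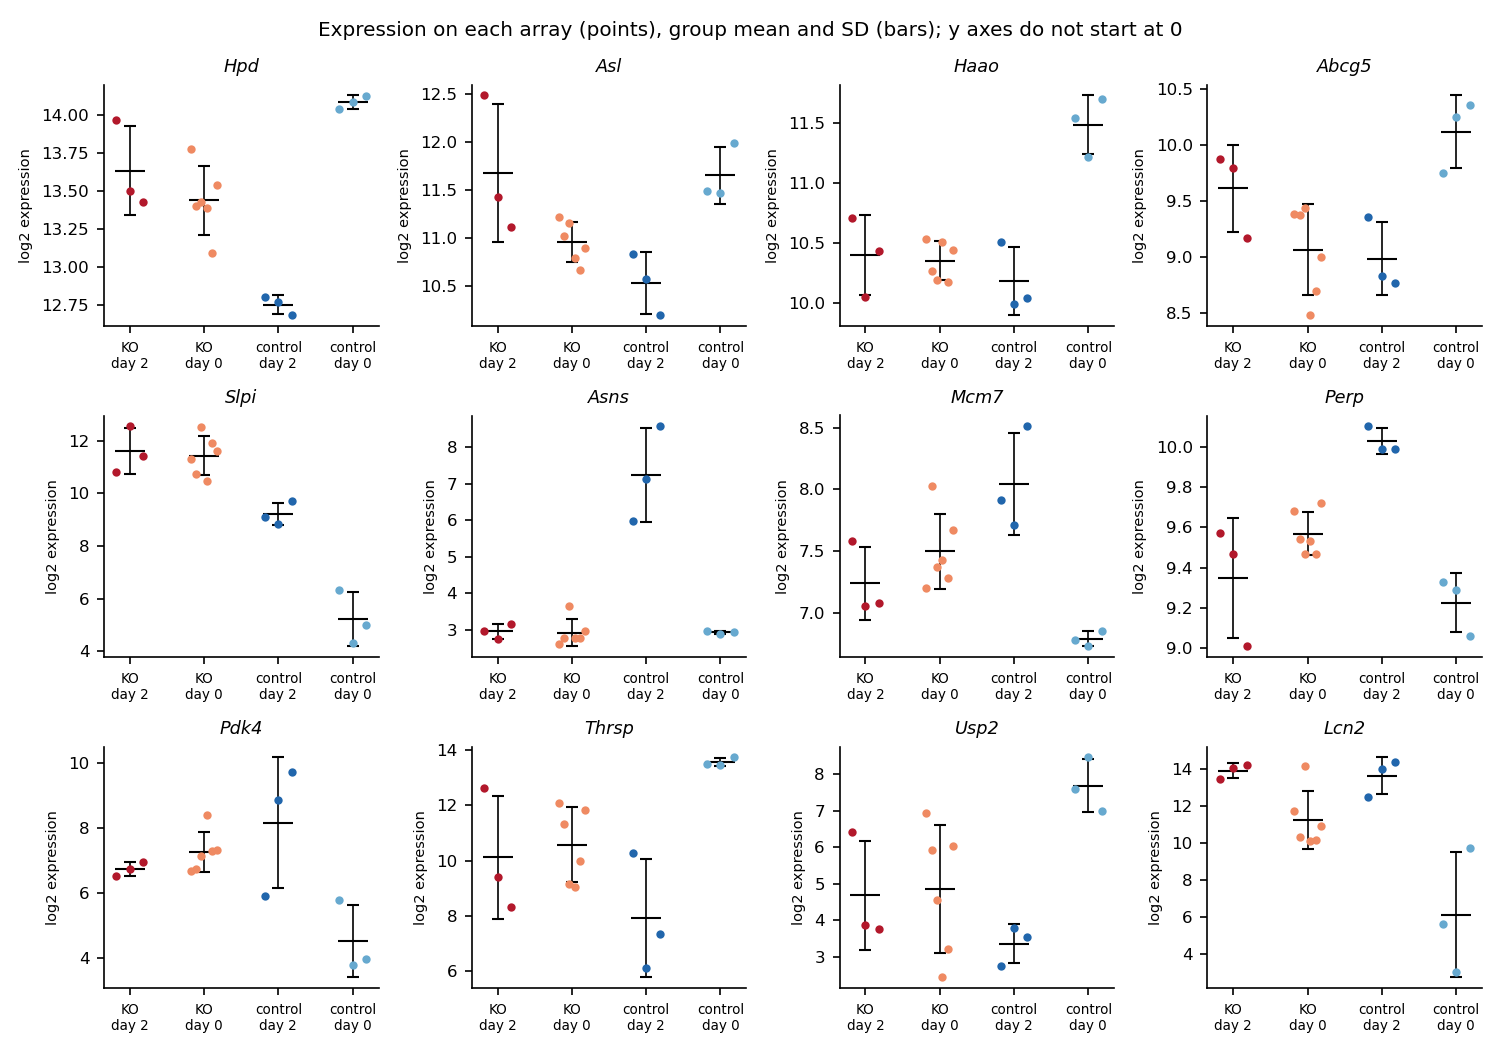
Log2 expression of 12 named genes on each array (points), with group mean and SD (bars), for KO day 2 (n = 3), KO day 0 (n = 6), control day 2 (n = 3) and control day 0 (n = 3), left to right. Hpd, Asl, Haao and Abcg5 were lower on day 2 than on day 0 in controls, and the KO groups overlapped or lay higher on day 2; Slpi and Asns were higher on day 2 in controls.

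Several other liver functions lay on the same side. Alas1, the rate-limiting enzyme of haem synthesis, lay at 12.08, 10.77 and 11.59 in KO livers on day 2 and between 9.72 and 11.37 on day 0, with a median of 11.04. The control livers held 8.97, 9.46 and 9.45 on day 2 and 12.04, 10.84 and 11.66 on day 0. It fell in controls (−2.22 ± 0.49, adjusted p = 0.012), and the interaction was 2.84 ± 0.65 (adjusted p = 0.0993). Papss2, which makes the sulphate donor used in conjugation reactions, had an interaction of 2.00 ± 0.43 (adjusted p = 0.0839), and its other 3 probe sets gave 4.50, 4.95 and −0.08. Aldh2, the mitochondrial aldehyde dehydrogenase, had 0.93 ± 0.22 (adjusted p = 0.107) and fell in controls by 1.13 on the log2 scale. Its other 2 probe sets, of lower level, gave interactions of −0.16 and −0.295, so the probe sets disagreed in sign. The other probe set of Alas1 gave 1.71.

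Of 28 tested genes of bile acid synthesis and transport, 8 were higher and 1 lower in KO at an unadjusted p under 0.05 (28.6% and 3.57%), with a median interaction of 0.55 that was 0.26 without the 3 arrays of high Gapdh difference, 0.29 without control mouse 265 on day 2 and 0.22 without KO mouse 250 on day 2. Abcg5, one partner of the transporter that exports sterols into bile, lay at 9.88, 9.80 and 9.17 in KO livers on day 2 and between 8.48 and 9.44 on day 0, with a median of 9.19. In control livers it lay at 9.36, 8.83 and 8.77 on day 2 and at 9.75, 10.25 and 10.36 on day 0. The control groups did not overlap, and the interaction was 1.69 ± 0.41 (adjusted p = 0.108). Cyp27a1, which starts the acidic pathway of bile acid synthesis, had 1.11 ± 0.33, and 0.66 without the 3 arrays. Nr0b2, a repressor of bile acid synthesis also called SHP, had 1.35 ± 0.47. Nr1i3, the xenobiotic receptor CAR, had 2.15 ± 0.80, 0.83 without the 3 arrays and 1.08 without control mouse 265 on day 2. Cyp7a1, the rate-limiting enzyme of the classical pathway, had 0.45 ± 1.60 and changed sign to −1.27 without control mouse 265 on day 2, where it lay at 3.24 against 8.31 and 8.49 in the other 2 control livers.

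Cytochrome P450 genes of families 1 to 3 counted 5 of 23 higher (21.7%, against 5.79% of all genes) and 0 lower. Their median was 0.52, and 0.27 without the 3 arrays, 0.22 without control mouse 265 on day 2 and 0.87 without control mouse 263 on day 2. Cyp2d22 had an interaction of 1.01 ± 0.25. Cyp2f2 had 1.84 ± 0.58, and 1.14 without control mouse 265 on day 2. Among 25 tested genes of the NRF2 and glutathione list, 6 were higher (24%) and 0 lower, but the median of 0.20 was −0.07 without the 3 arrays, 0.013 without control mouse 265 and 0.67 without control mouse 264 on day 2, and changed sign in 3 of 34 settings. In this list 10 of 25 genes fell past the test in controls, against 4.28% of all genes. Among them were the glutathione transferases Gstm6 (−3.61 ± 0.47), Gstm1 (−3.18 ± 0.55) and Gsta2 (−4.90 ± 0.73). Their changes in KO were −1.21, −1.02 and −2.02, none past the test. Gstm1 had an interaction of 2.16 ± 0.72 that was 0.82 without the 3 arrays and 1.19 without control mouse 265 on day 2, whereas Gsta2 had 2.88 ± 0.97, and 2.84 without them. The glutathione transferases are close paralogs, so their probe sets may share signal.

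Fatty acid synthesis had a median interaction of 0.66 over 17 genes, from a median change of −0.42 in KO and −1.24 in controls. Of the 17, 3 were higher (17.6%, against 5.79% of all genes) and 0 lower. Without 1 array the median ran from 0.28 (KO mouse 250 on day 2) to 1.18 (control mouse 264 on day 2). Thrsp, a lipogenic regulator also called Spot 14, lay at 12.61, 9.42 and 8.31 in KO livers on day 2 and between 9.04 and 12.09 on day 0, with a median of 10.66. Its control values were 10.28, 6.13 and 7.33 on day 2 and 13.51, 13.46 and 13.73 on day 0. The 3 control livers were close together on day 0 and far apart on day 2, and the interaction was 5.19 ± 1.56 (adjusted p = 0.185). Fasn, fatty acid synthase, had 2.05 ± 0.82, and Mlxipl, the carbohydrate-responsive factor ChREBP, had 1.18 ± 0.46.

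For the circadian clock list, the sources used here do not give the hour of sampling. Of 18 genes, 5 were higher (27.8%, against 5.79% of all genes) and 0 lower, with a median interaction of 0.80. Usp2, a deubiquitinase with a strong daily rhythm, lay at 6.41, 3.88 and 3.77 in KO livers on day 2 and between 2.44 and 6.93 on day 0, with a median of 5.24. The control livers held 2.75, 3.79 and 3.55 on day 2, all at or under log2 4, and 7.61, 8.46 and 7 on day 0. Its interaction was 4.16 ± 1.45, and that of the period gene Per3 was 3.08 ± 1.36, and 1.99 without KO mouse 250 on day 2. The other probe sets, of lower level, gave 2.80 for Usp2 and 0.45 and 0.43 for Per3. The mean of the list, centred per gene, was 0.73, 0.772 and 0.779 in control livers on day 0, and in KO livers on day 0 it fell into 3 values between −0.635 and −0.373 and 3 between 0.454 and 0.492. Dbp, an output gene of the clock, ranged from 5.43 to 11.41 within KO livers on day 0, and its interaction was 2.02 ± 2.17, 3.15 without the 3 arrays, 1.05 without KO mouse 250 on day 2 and 3.88 at its other probe set.

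**Figure D3:**
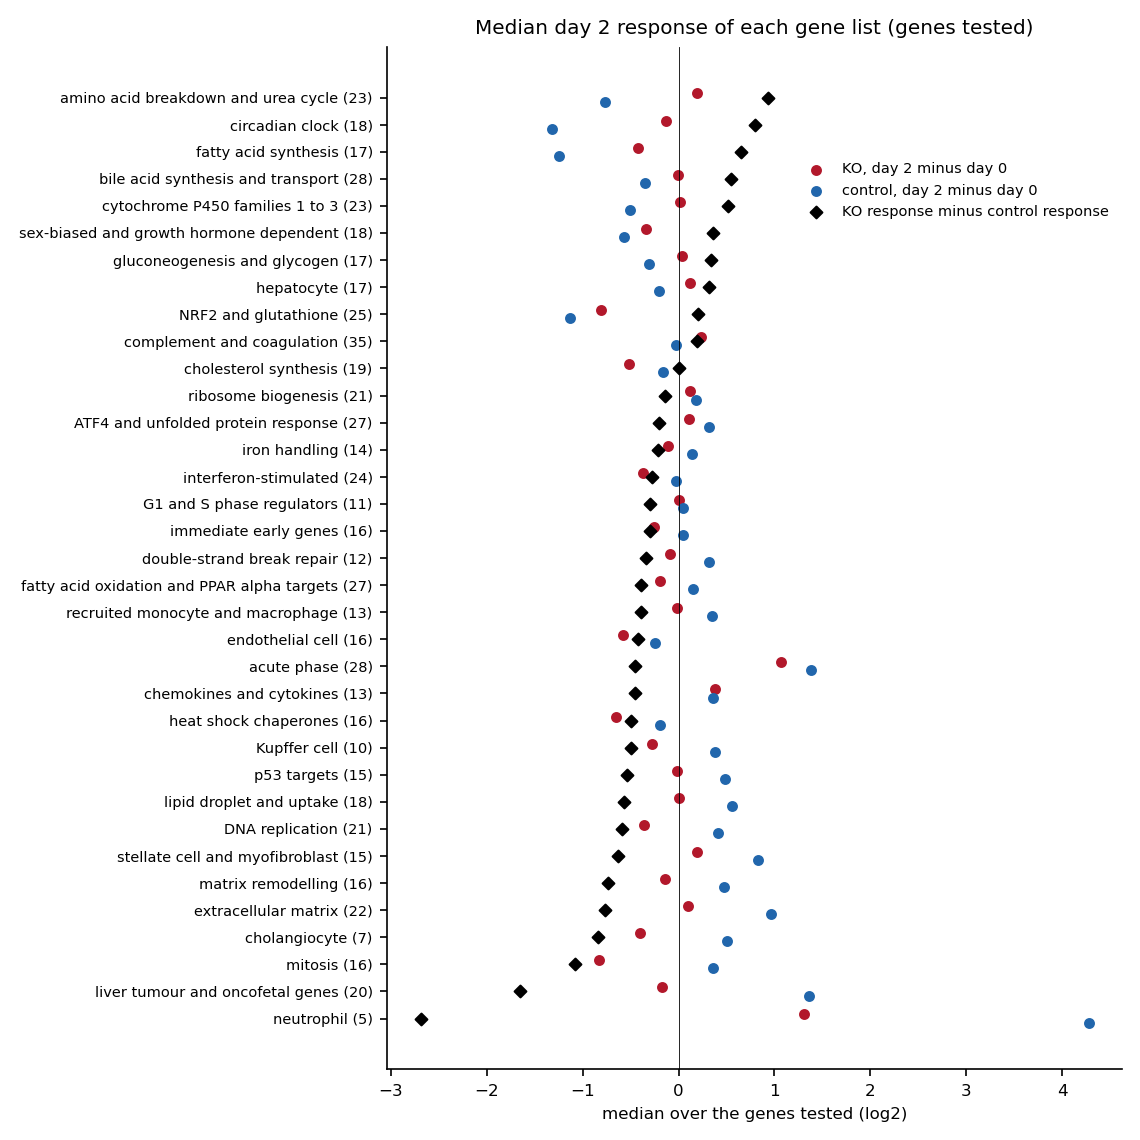
Median change between day 2 and day 0 over the tested genes of each list, in KO (red) and in controls (blue), with the median interaction (black diamonds), in log2; the number of genes is in brackets. Amino acid breakdown has the highest median interaction, 0.94 over 23 genes, and the neutrophil list the lowest, −2.69 over 5 genes, among lists of at least 5 genes.

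On the other side stood genes that were higher on day 2 in controls and were already high in KO livers at surgery. A list of liver tumour and oncofetal genes, chosen with earlier results of these data known, had 25 genes on the array, and 20 passed the filter on low values. A gene high in KO livers on day 0 alone, or in control livers on day 2 alone, can pass, which favours values below 0. Of the 20, 10 had an unadjusted p under 0.05 with a lower response in KO (50%, against 8.83% of all genes) and 0 with a higher one. Their direction was therefore not independent of the choice of list and the filter. The median interaction was −1.65, from −0.18 in KO and 1.36 in controls, and it was −1.81 without the 3 arrays of high Gapdh difference. The mean of the list, centred per gene, was 0.289 to 1.59 in KO livers on day 2, 0.92 to 1.66 in KO livers on day 0, −0.995 to 0.08 in control livers on day 2 and −2.28 to −1.78 in control livers on day 0. Control livers on day 2 thus lay above control livers on day 0 and below all KO livers.

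Slpi, a secreted inhibitor of leukocyte proteases, lay at 10.83, 12.55 and 11.42 in KO livers on day 2 and at 10.49, 11.47 and 12.52 (lowest, median, highest) in KO livers on day 0. In control livers it lay at 9.11, 8.85 and 9.70 on day 2 and at 6.32, 4.30 and 5 on day 0. The control groups did not overlap, and both lay below every KO value. It rose in controls (4.01 ± 0.54, adjusted p = 0.0007), and the interaction was −3.85 ± 0.71 (adjusted p = 0.0733). S100a6, a calcium-binding protein of growing cells, had an interaction of −3.24 ± 0.88 with all control day 0 arrays at or under log2 4, so its control response of 4.22 is a lower bound. Anxa2 and Anxa5, annexins that bind membrane phospholipid, had −2.02 ± 0.65 and −1.12 ± 0.48, and the intermediate filament gene Vim had −1.87 ± 0.72. Anxa2 was −3.04 without the 3 arrays, and its other 2 probe sets, near background, gave −0.19 and −0.0017. Without KO mouse 250 on day 2, Anxa5 was −0.67 and Vim −1.22.

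Markers of other cells had medians below 0 in the lists with at least 5 tested genes, and none of their members passed the test of the interaction. Among smaller lists, the medians of the erythroid list (0.97 over 2 genes) and the pancreas list (1.72, 1 gene) were above 0 and the others below. Of 13 cholangiocyte markers on the array, 7 passed the filter on low values. A gene high in KO livers on day 0 alone can pass that filter, which favours values below 0. All 7 were below 0, with a median of −0.84 and 3 at an unadjusted p under 0.05 (42.9%, against 8.83% of all genes). One of them, Tspan8, lay at 4.47, 4.23 and 4.2 in KO livers on day 2 and between 4.89 and 6.98 on day 0, and at or under log2 4 on every control array. Its response in controls could therefore not be measured. Its other 3 probe sets, near background, gave −0.19, −0.21 and 0.03. Of 15 stellate cell and myofibroblast markers 4 were lower (26.7%) and 0 higher, with a median of −0.63, of −0.97 without the 3 arrays and of −1.02 without KO mouse 258 on day 2. Of 22 extracellular matrix genes 6 were lower (27.3%) and 0 higher, with a median of −0.77, of −0.34 without KO mouse 250 on day 2 and of −0.48 without KO mouse 258 on day 0. Col3a1, a fibrillar collagen, had −2.02 ± 0.86, and −1.21 without KO mouse 250 on day 2, but its other probe set gave 0.53, of opposite sign. Col4a2, a basement membrane collagen, had −1.59 ± 0.61. Col1a1 had −1.02 ± 1.36, −2.21 without the 3 arrays and, with a changed sign, 0.19 without KO mouse 250 on day 2, and its other probe set gave 0.22. The mean of the stellate cell list in KO livers on day 0 was 1.58 in mouse 258 and 0.44 to 0.682 in the other 5 mice. In bulk tissue more cells of a type and more RNA per cell cannot be told apart, and the part of cell mixture in these values was not tested.

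The lists of DNA replication and mitosis had medians below 0, and none of their genes passed the test of the interaction. Of 26 mitosis genes on the array, 16 passed the filter on low values, which can keep a gene high in KO livers on day 0 alone. Such a gene tends to a value below 0, so the direction of the 16 was not independent of the filter. All 16 were below 0, with a median interaction of −1.08 (−0.10 over all genes), from −0.83 in KO and 0.36 in controls. Only 2 had an unadjusted p under 0.05 (12.5%, against 8.83% of all genes). The median lay between −1.63 and −0.64 over the 34 settings. The list mean was −0.305 to 0.717 in KO livers on day 2, 0.0121 to 1.7 in KO livers on day 0, −0.274 to −0.212 in control livers on day 2 and −0.93 to −0.429 in control livers on day 0. Control groups did not overlap, and KO livers on day 0 lay above all control livers.

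Stmn1, a microtubule destabiliser of dividing cells, lay at 6.47, 6.75 and 7.50 in KO livers on day 2 and between 7.26 and 8.61 on day 0, with a median of 8.025. Its control values were 6.78, 7.07 and 7.20 on day 2 and 5.81, 5.95 and 5.18 on day 0. The interaction was −2.46 ± 0.63 (adjusted p = 0.127), but the other probe set of this gene gave −0.34. Mki67, the proliferation marker Ki-67, lay at 3.13, 3.10 and 5.03 in KO livers on day 2 and between 4.2 and 5.96 on day 0, and at 3.14, 3.27 and 4.35 in control livers on day 2 and at or under log2 4 on day 0. Its interaction was −1.97 ± 0.72. Cdk1, the kinase that drives entry into mitosis, was at or under log2 4 on every control array of both days. It passed the filter through KO arrays, and a Cdk1 response in controls could not be measured. Its interaction was −1.55 ± 0.87, and −0.885 with mouse as a fixed block.

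In the DNA replication list, 4 of 21 genes were lower and 1 higher (19% and 4.76%), with a median of −0.59. Mcm7, a subunit of the replicative helicase, lay at 7.58, 7.05 and 7.08 in KO livers on day 2 and between 7.20 and 8.03 on day 0, with a median of 7.40. The control livers held 7.91, 7.71 and 8.51 on day 2 and 6.78, 6.73 and 6.85 on day 0. The control groups did not overlap, and the interaction was −1.52 ± 0.33 (adjusted p = 0.0935). The other 3 probe sets of Mcm7 gave −0.85, −0.28 and 0.25, so the probe sets disagreed. Cdt1, which loads the helicase, had −2.85 ± 0.91, while its other 2 probe sets gave −0.54 and −0.07. Tk1, the salvage enzyme thymidine kinase, ran the other way at 2.77 ± 0.89, and 1.70 without KO mouse 250 on day 2. Ccnd1, the G1 cyclin, had 0.25 ± 0.75 and changed sign to −0.74 without control mouse 265 on day 2.

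**Figure D4:**
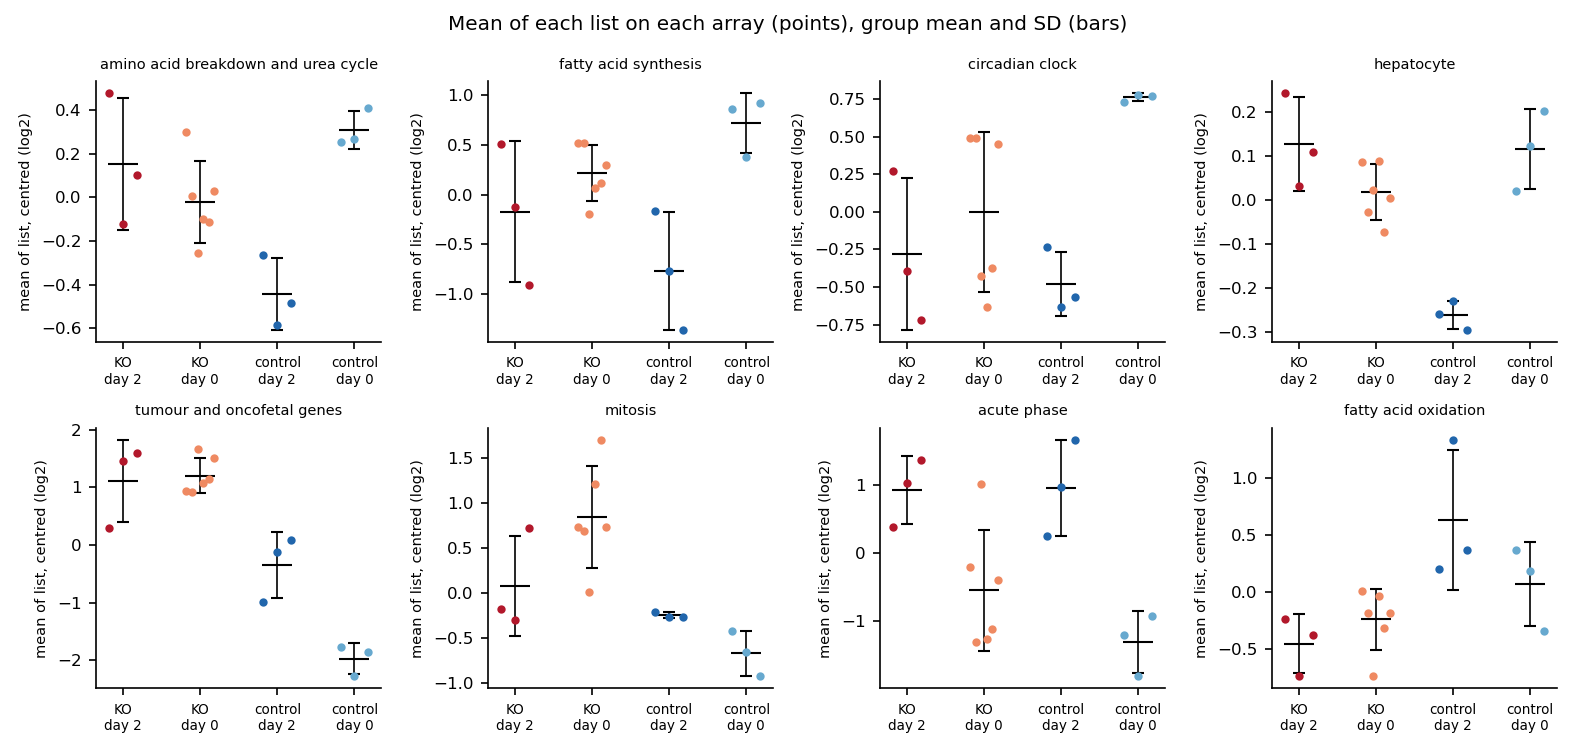
Mean log2 level of 8 lists on each array (points), centred per gene over all arrays, with group mean and SD (bars), for KO day 2, KO day 0, control day 2 and control day 0. In the mitosis panel KO day 0 lies between 0.0121 and 1.7, above all control arrays, and in the acute phase panel KO mouse 258 on day 0 stands at 1.002 among values of −1.31 to −0.214.

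The p53 list, which holds genes induced by DNA damage, was of mixed direction. Of 15 genes, 1 was higher (6.67%, against 5.79% of all genes) and 3 lower (20%, against 8.83%). The median was −0.54, and −0.305 without KO mouse 250 on day 2. Perp, a desmosomal membrane protein and p53 target, lay at 9.57, 9.47 and 9.01 in KO livers on day 2 and between 9.47 and 9.72 on day 0, with a median of 9.535. In control livers it lay at 10.10, 9.99 and 9.99 on day 2 and at 9.33, 9.29 and 9.06 on day 0. The interaction was −1.02 ± 0.21 (adjusted p = 0.0816), the control day 2 group being the highest of the 4. Cdkn1a, the cell cycle inhibitor p21, lay at 6.40, 9.54 and 9.93 in KO livers on day 2 and between 6.83 and 10.03 on day 0, and at 6.52, 8.97 and 8.26 in control livers on day 2 and 4.18, 3.89 and 5.01 on day 0. It rose in controls (3.56 ± 0.99, adjusted p = 0.033), and the interaction was −3.09 ± 1.32 (adjusted p = 0.301), and −1.98 without KO mouse 250 on day 2. Its other probe set, near background, gave −0.21. Gadd45a, another damage-inducible gene, ran the other way at 2.38 ± 0.79, and 1.49 without the 3 arrays.

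Over the 12 genes of double-strand break repair, 1 was higher and 1 lower (8.33% each, against 5.79% and 8.83% of all genes). The median of −0.34 was 0.0025 without control mouse 265 and −0.63 without control mouse 263 on day 2. In this list Trp53bp1 had an interaction of −1.82, with −0.11 at its other probe set. Atm ran the other way at 1.22, and was −0.40 without the 3 arrays of high Gapdh difference. Faap20, a member of the Fanconi anaemia core complex but not of this list, had an interaction of −2.02 ± 0.39 (adjusted p = 0.0733). Its other 2 probe sets gave −1.26 and −1.38.

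Asns, asparagine synthetase and a target of the amino acid response factor ATF4, was at or under log2 4 on every array except those of control livers on day 2. It lay at 2.97, 2.74 and 3.15 in KO livers on day 2 and between 2.61 and 3.66 on day 0, and at 5.99, 7.14 and 8.57 in control livers on day 2 and 2.96, 2.87 and 2.94 on day 0. It rose in controls by at least 4.31 ± 0.70 (adjusted p = 0.0031), the day 0 level being near background, and the interaction was −4.28 ± 0.92 (adjusted p = 0.0839). Its other probe set gave −3.23. The value was highest in control mouse 265, and the interaction was −3.61 without that array. Over the 27 tested genes of the ATF4 and unfolded protein response list, 2 were higher and 3 lower. These are 7.41% and 11.1%, against 5.79% and 8.83% of all genes. The list median of −0.21 ran from −0.40 to −0.052 without 1 array. Slc1a4, a neutral amino acid transporter, had −2.34 ± 0.53, while its other 2 probe sets, of lower level, gave −0.16 and −0.32. Cth, the enzyme that makes cysteine from cystathionine, had 1.37 ± 0.43.

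The promoters of Asns and Mcm7, which were higher on day 2 in controls, and of Hpd, which was lower, are shown as examples, chosen after their values and matches were seen. The 250 bases before the RefSeq transcription start are given on the gene's strand (GRCm38.p6, all 3 on the minus strand), at chr6:7693210-7693459 for Asns, chr5:138171884-138172133 for Mcm7 and chr5:123182724-123182973 for Hpd. Capitals mark a match to 1 of 5 motifs.
Asns: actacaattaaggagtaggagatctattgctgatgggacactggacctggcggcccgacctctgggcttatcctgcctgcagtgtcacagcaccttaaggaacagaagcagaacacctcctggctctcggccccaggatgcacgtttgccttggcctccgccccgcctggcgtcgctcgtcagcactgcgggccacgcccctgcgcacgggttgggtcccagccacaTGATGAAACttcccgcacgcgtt
Mcm7: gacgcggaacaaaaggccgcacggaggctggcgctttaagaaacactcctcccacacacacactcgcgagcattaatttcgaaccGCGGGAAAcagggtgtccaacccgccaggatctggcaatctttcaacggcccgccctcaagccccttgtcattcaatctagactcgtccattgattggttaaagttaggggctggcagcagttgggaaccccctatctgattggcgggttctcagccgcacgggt
Hpd: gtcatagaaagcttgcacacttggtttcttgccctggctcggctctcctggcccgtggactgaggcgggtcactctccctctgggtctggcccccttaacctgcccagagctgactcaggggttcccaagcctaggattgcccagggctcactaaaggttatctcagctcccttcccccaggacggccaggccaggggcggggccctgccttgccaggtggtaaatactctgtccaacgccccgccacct
The match in Asns is to TGATGNAAN, the C/EBP-ATF response element that ATF4 binds, 23 bases before the start. The match in Mcm7 is to TTTNNCGC, the E2F element, read on the other strand and 165 bases before the start, and a second lies 16 bases after it. A second RefSeq window of Mcm7 holds none of the motifs, and neither does the window of Hpd. Windows of 5 other described genes were searched. Those of Haao and Usp2 held none of the motifs, that of the clock output gene Dbp held an E2F element but no E-box, that of Cdt1 held an E2F element, and that of Slpi held an E-box and a C/EBP motif.

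The 5 motifs were searched on both strands in windows from 250 bases before to 50 after the start, and were chosen after values were seen. Over 6017 tested genes with a window, TGATGNAAN was found in 2.76%, TTTNNCGC in 9.91%, the E-box CACGTG in 12.4%, the C/EBP motif TTGCNNAA in 10.9% and the HNF4 motif CAAAGTCCA in 0.715%. In 5 lists, the shares furthest above these were 25% for TGATGNAAN (6 of 24 ATF4 genes), 36.8% for TTTNNCGC (7 of 19 replication genes) and 26.7% for the E-box (4 of 15 clock genes). In the list of amino acid breakdown the shares were 5.26% (1 of 19) for TGATGNAAN, 0 of 19 for TTTNNCGC, 5.26% for the E-box, 15.8% for C/EBP and 0 of 19 for HNF4. A match is a description of letters and was not tested against the responses.

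Genes of fatty acid oxidation and targets of PPAR alpha, the fasting-responsive lipid receptor, counted 6 of 27 lower and 0 higher. The 6 are 22.2%, against 8.83% of all genes. The median was −0.39, and −0.65 without control mouse 263 on day 2. The 3 largest interactions of this list came from genes with wide spread in controls on day 2. Vnn1, a pantetheinase, lay at 6.57, 7.47 and 8.06 in KO livers on day 2 and between 6.64 and 8.24 on day 0, and at 6.93, 11.06 and 13.21 in control livers on day 2 and 5.24, 4.02 and 4.01 on day 0. Its interaction was −6.03 ± 1.63 (adjusted p = 0.14), and −4.63 without control mouse 265. Cyp4a14, a fatty acid hydroxylase, lay at 4.56, 2.67 and 2.79 in KO livers on day 2 and at or under log2 4 on day 0, and at 9.61, 12.19 and 8.33 in control livers on day 2 and 4.05, 4.21 and 2.71 on day 0. Its interaction was −5.78 ± 1.61 (adjusted p = 0.151). Pdk4, the kinase that shuts off pyruvate oxidation, had −4.17 ± 1.09 (adjusted p = 0.129).

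The acute phase list had a median change above 0 in both genotypes. Its 28 genes had a median change of 1.07 in KO and 1.38 in controls, where 15 rose past the test, against 5.23% of all genes. The median interaction was −0.45, with 3 lower and 0 higher (10.7%, against 8.83%). The median was −0.23 without KO mouse 258 on day 0 and −0.75 without control mouse 263 on day 2. Without control mouse 265 on day 2, 5 passed in controls. Lcn2, a siderophore-binding protein, lay at 13.43, 14.06 and 14.22 in KO livers on day 2 and at 10.08, 10.62 and 14.14 (lowest, median, highest) on day 0, and at 12.48, 14 and 14.35 in control livers on day 2 and 5.61, 3.06 and 9.75 on day 0. The day 2 values of the genotypes overlapped, and the day 0 values differed, the highest KO value being that of mouse 258. The interaction was −4.79 ± 1.70 (adjusted p = 0.226). Hp, haptoglobin, had −0.81 ± 0.26 and Saa1, serum amyloid A, −2.02 ± 1.35, with −1.06 and −3.14 without control mice 265 and 303 on day 0.

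Of 13 neutrophil markers on the array, 5 passed the filter on low values and were tested. A gene high in control livers on day 2 alone, or in KO livers on day 0 alone, can pass that filter, which favours values below 0. All 5 had an interaction below 0, with a median of −2.69, so their direction was not independent of the filter. In controls 4 of them rose past the test, against 5.23% of all genes, and 2 without control mouse 265 on day 2. Their list mean was 0.277 to 1.97 in KO livers on day 2, −1.83 to 1.40 in KO livers on day 0, 0.997 to 2.71 in control livers on day 2 and −3.24 to −1.58 in control livers on day 0. S100a8, a calprotectin subunit, had −2.69 ± 1.33. Without control mouse 265 on day 2 both the median and S100a8 were at −1.77. Lcn2 belongs to this list, to the acute phase list and to the tumour list, so these counts share a gene.

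**Figure D5:**
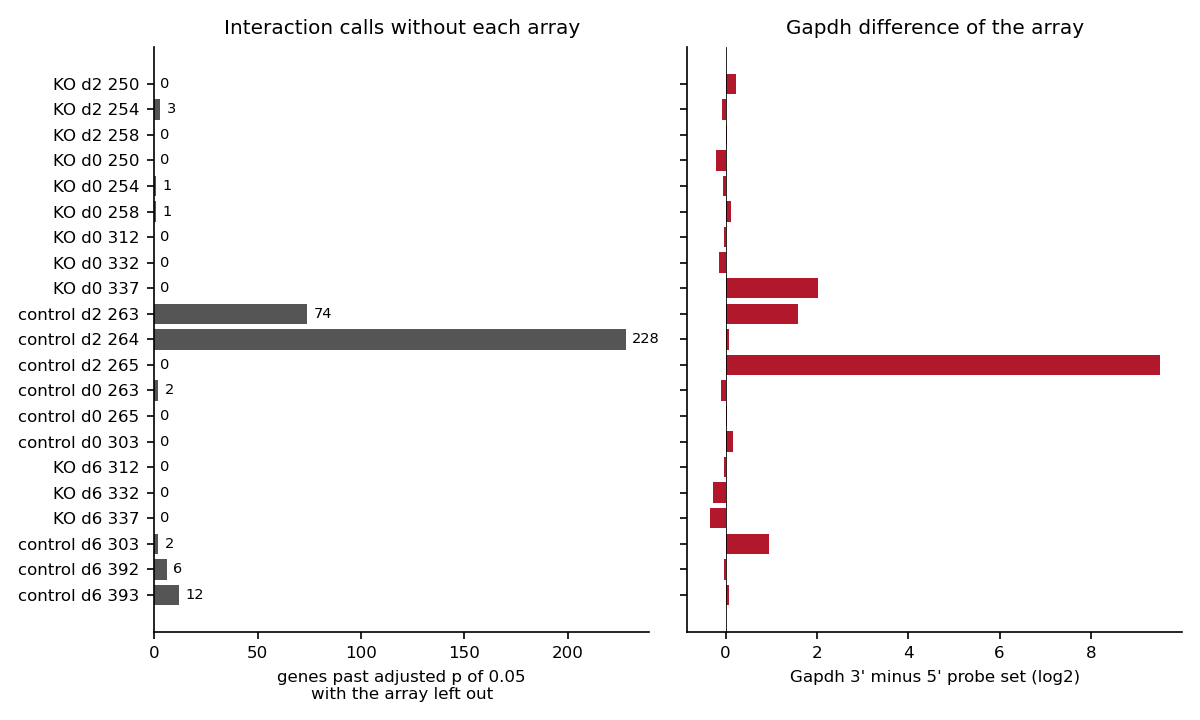
Left, number of genes whose interaction had an adjusted p under 0.05 when the array named on the vertical axis was left out. Right, Gapdh 3′ minus 5′ difference of that array in log2. Counts were 228 without control mouse 264 on day 2, whose Gapdh difference was 0.07, 74 without control mouse 263 and 0 without control mouse 265, whose difference was 9.5.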

How the data were processed

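Total RNA was extracted with Trizol and labelled with biotin by a 3-prime IVT protocol, per the labels' protocols, and measured on Affymetrix mouse arrays. The deposited log2 values were made by the authors with GCRMA, per the submitters' processing notes, which give no version; normalization was kept as deposited. Each array is 1 liver sample of 1 mouse. Probe sets with 1 annotated gene symbol (20380 of 22690) were used, and each gene was represented by its brightest probe set on average. Genes with log2 above 4 in at least 3 arrays were fitted with limma 3.58.1 (R 4.3.3; lmFit and eBayes) in 1 model of 6 groups with 15 residual degrees of freedom. Tests were two-sided with Benjamini-Hochberg adjustment over 7320 genes and a threshold of 0.05. For 601 of these genes, 1 or more of the 4 groups had no array above log2 4, and a difference from that group is then a bound. Precision is limited by the number of arrays.

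The series' design text says that day 0 samples came from the mice sampled later, so mouse numbers pair samples of 1 animal, 3 pairs for KO and 2 for controls on day 2. Deviations from group means correlated at −0.0568 to 0.303 within the 9 pairs (median 0.119). The members, lists, rule for named genes and the alternative without 3 arrays were chosen with earlier results of these data known. The rule named 134 genes: the 15 with the smallest interaction p in each direction, the 2 with the smallest p in each list, a fixed set, and the 8 largest rises and 8 largest falls past the test in controls. The text describes a subset chosen after values were seen. A further 16 genes outside the rule were chosen after their values were seen (Cps1, Tat, Prodh, Gpt, Nr0b2, Nr1i3, Per3, Tk1, S100a6, Anxa2, Anxa5, Apcs, Hadhb, Acadm, Slc25a20 and Socs3). In the fixed set, Ccnb1, Spp1 and Gapdh had no probe set of their own, and Afp did not pass the filter. Some items of the lists and the fixed set are not reported here.

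The fit was checked on simulated data in which 200 of 7320 genes changed. Alternatives were other filters, averaged probe sets per gene, quantile normalization, median centring, trend and robust eBayes, array weights, only the 15 arrays, only the KO day 0 lobes of mice sampled on day 2, mouse as a block, the RNA quality settings and leaving out each array. Promoter windows came from RefSeq (GRCm38.p6). Plots used Python 3.11.15 and matplotlib 3.10.9.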

Additional observations from a re-analysis of the deposited data

Results flagged for a closer look

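Among the 6 KO livers on day 0, a sample was flagged where its gap to the nearest other sample exceeded 0.625 of the whole range of the group. This was examined in 185 sets of values, 150 named genes and 35 list means, and 24 were flagged, 12 of them in mouse 258. Chance flags about 1 in 20 independent sets, and these sets shared genes and arrays. Mouse 258 entered the day 0 baseline of KO, and without that array 1 gene passed the test of the interaction and 32 that of the KO response. Of the 150 named genes, the interactions of 10 moved by over 1.5 times without it, Apcs to −0.37, Prtn3 to −0.28, Orm2 to −0.037, Col1a1 to −0.44, Cyp7a1 to 0.14, Alas2 to 0.078, Pcna to 0.053, Ccnd1 to 0.15, Hamp to 0.028 and Cd36, with a changed sign, to 0.039.

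Mouse 258 was highest for Asns (3.66), for the transcription factor gene Jund (10.92), for the collagens Col3a1 (12.27) and Col1a1 (9.9), for the neutrophil protease gene Prtn3 (7.65), for Cyb561 (7.85) and for the acute phase gene Apcs (14.06). Apcs lay between 11.24 and 11.76 in the other 5 KO livers, and Prtn3 between 2.27 and 2.59. It was lowest for Alas2 (5.38), Cyp7a1 (8.26), Inmt (7.12) and Gsta2 (11.37). The mean of the stellate cell and myofibroblast list, centred per gene, was 1.58 in this mouse and 0.44 to 0.682 in the others.

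Mouse 332 was lowest for Cpsf4l (2.76), Cyp2d22 (10.55), Cyp27a1 (11.08) and Hamp (14), the iron hormone hepcidin, and highest for Top2a (3.97). Its mean of the immediate early genes was 1.85, against 0.069 to 0.735 in the others. Mouse 337, whose Gapdh difference was 2.03, was lowest for Atm (4.78) and highest for Gzmb (2.47) and Ighm (8.62). Mouse 254 was highest for Cyp2g1 (2.92) and Rbl1 (4.6), and mouse 312 for Pdk4 (8.41). Values of Asns, Top2a, Gzmb and Cyp2g1 were under log2 4 in all 6 livers, so these flags are of signal near background. No interaction is listed here as a difference between the genotypes, because none passed its test.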

How the results depend on the processing

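The interaction count of 0 genes was also 0 with a filter at log2 6, median centring, array weights, only the KO day 0 lobes of mice sampled on day 2, and mouse as a fixed block (5 residual degrees of freedom). It was 4 with no filter, 10 with probe sets averaged per gene, 1 with quantile normalization, 1 with trend and robust eBayes, 10 with only the 15 arrays, 8 with mouse as a random replicate block, 2 without the 3 arrays of high Gapdh difference (Cspg5 and Cyb5r1), 1 with the beta-actin difference as a covariate and 3 with every probe set on its own. Leaving out 1 array gave 0 to 228, with 12 calls without control mouse 393 and 6 without control mouse 392, both of day 6. Klf1, which was at or under log2 4 in all but control livers on day 0, was called in 13 of 34 settings, Hpd in 10 and Slpi in 7.

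The KO response count of 0 was 140 with array weights and 0 to 32 without 1 array, the highest without KO mouse 258 on day 0. The control response count of 696 was 214 with array weights, 78 without the 3 arrays, 88 with the beta-actin covariate and 173 to 1283 without 1 array (1283 without control mouse 264 on day 2; 403, 179 and 240 without control mice 263, 265 and 303 on day 0). With the mouse as a block it was 925 (random) and 552 (fixed). The cause of these shifts was not tested.

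Over 150 named genes and 34 settings, 5085 values were computed; 4918 kept their direction and their side of the threshold, 123 newly passed and 44 changed sign. All 150 were counted, since the genes described in the report were picked after these values were seen and leave out some that changed sign often. Values under other settings that changed the sign, and the ranges without 1 array that span both signs, were, for Hamp, −0.051 (array weights), −0.063 (KO day 0 lobes of mice sampled on day 2), −0.0039 and −0.067 (random and fixed replicate block), −0.01 (without the 3 arrays) and −0.108 to 0.068 without 1 array. For Cd36 they were 0.38 (fixed replicate block) and −0.67 to 0.43 without 1 array. For Cyp7a1 they were −1.56 (array weights), −1.32 (without the 3 arrays), −1.09 (beta-actin covariate) and −1.27 to 1.71 without 1 array. For Ccnd1 they were −0.43, −0.88 and −0.96 in that order of settings, and −0.74 to 0.80 without 1 array. For Pcna they were −0.14, −0.33 and −0.037 in the same order, and −0.055 to 0.365 without 1 array. For Orm2 they were 0.33 (array weights), 0.12 (beta-actin covariate) and −1.902 to 0.078 without 1 array. For Myc they were 0.10 (array weights) and 0.085 (without the 3 arrays). Without the 3 arrays Atm was −0.40, Gzmb 0.0033 and Jun −0.086. Abcb4 was 0.22 with the fixed replicate block, Alb −0.060 with the beta-actin covariate and Col1a1 −1.92 to 0.19 without 1 array. The cause was not tested.

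Of the 35 list medians, 8 changed sign in at least 1 setting, cholesterol synthesis in 17 of 34, immediate early genes in 5, chemokines and cytokines in 4, NRF2 and glutathione in 3, heat shock chaperones in 2 and 1 each for double-strand break repair, gluconeogenesis and Kupffer cells. Signal near background limits genes under log2 4.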

Other observations

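Further gene groups gave the following values. Of 19 tested genes of cholesterol synthesis, 1 was higher and 4 lower in KO at an unadjusted p under 0.05. These are 5.26% and 21.1%, against 5.79% and 8.83% of all genes, and the median interaction of the list was 0.01. Among them Cyp51, a demethylase of the sterol pathway, had −2.02 ± 0.62 (SE) and Hmgcs1, which makes HMG-CoA, had −1.85 ± 0.63. Hmgcs1 lay at 12.45, 12.34 and 10.78 (log2) in KO livers on day 2 and between 12.14 and 13 on day 0, and at 12.28, 11.39 and 12.36 in control livers on day 2 and 11.45, 10.84 and 10.31 on day 0. Neither passed the adjustment (limma adjusted p = 0.185 and 0.208).

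Of 16 heat shock chaperones, 3 were lower (18.8%, against 8.83% of all genes) and 0 higher, with a median of −0.50, and of −0.76 without control mouse 263 on day 2. Hspa1b, an inducible HSP70, ranged from 8.07 to 12.35 within KO livers on day 0, and its interaction was −2.81 ± 1.33. That value was −0.99 with only the KO day 0 lobes of mice sampled on day 2, and −1.025 with mouse as a fixed block. Cryab, a small heat shock protein, had −1.63 ± 0.42 (limma adjusted p = 0.127), and its other 2 probe sets gave −0.77 and −0.07. Of 16 endothelial markers 2 were lower (12.5%, against 8.83% of all genes) and 0 higher, with a median of −0.42, and of −0.67 without KO mouse 258 on day 2. The one with the smallest p in this list was Lyve1, a hyaluronan receptor of sinusoidal and lymphatic endothelium, with −2.75 ± 0.94 and −1.42 at its other probe set. Of 10 Kupffer cell markers 1 was lower (10%) and 0 higher, with a median of −0.50 that was −0.11 without the 3 arrays of high Gapdh difference. Cd163, a macrophage scavenger receptor, lay between 2.46 and 2.69 on all KO arrays of both days, at 6.84, 7.87 and 6.95 in control livers on day 2 and at 6.02, 6.36 and 5.34 on day 0. KO values were all at or under log2 4, so a Cd163 response in KO could not be measured. The interaction was −1.21 ± 0.44, and −1.86 without the 3 arrays, and Cd163 rose in controls (1.31 ± 0.33, limma adjusted p = 0.022). Of 24 interferon-stimulated genes none had an unadjusted p under 0.05, and their median was −0.28, and −0.17 without control mouse 265 on day 2.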
